A study of Homo sapiens with 12 samples.

Results

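A list of 10 genes that mark intestinal stem cells or respond to Wnt signalling in the intestine was drawn up, and every probe annotated with one of their symbols was taken, whatever its signal. Probes were found for 8 of the 10 genes, ASCL2, LGR5, AXIN2, EPHB3, CD44, LEF1, BMP4 and DKK1, and these gave 11 of the 16381 probes in the table. EPHB2 and APCDD1 had no probe under their symbols in the annotation used and were not analysed here.

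In the intestinal crypt, Wnt ligands bind Frizzled receptors and LRP co-receptors, the complex that marks beta-catenin for destruction is held back, and beta-catenin activates genes together with TCF/LEF transcription factors. Some of its targets maintain stem cells (ASCL2, LGR5), some feed back on the pathway as inhibitors (AXIN2, DKK1), and others place cells along the crypt axis or act at the cell surface (EPHB3, CD44). LRH-1 is a nuclear receptor, the product of the NR5A2 gene, and is expressed in crypt cells, and HT29 colorectal cancer cells carry truncated APC, a scaffold of the destruction complex.

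HT29 cells were transfected for 24 h with siLRH-1 #1 or siLRH-1 #2, a pair of siRNAs against LRH-1, or with siLUC, a control siRNA against luciferase, each at 5 nM. Each siRNA had 4 biological replicates, 1 array each on the Illumina HumanHT-12 v4 BeadChip, giving 12 arrays in 3 groups. The study used the comparison to identify genes under the control of LRH-1. NR5A2 itself was not analysed here, so the extent of its knockdown in these arrays was not checked, and all groups were 1 cell line at 1 time and 1 dose.

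Values are log2 probe signals, so a difference of group means is a log2 fold change, and levels are not compared between probes. The array medians lay between 6.56 and 6.57. The 10 measured markers of epithelium and colon averaged between 6.92 and 13.44, all above the median of all probes, 6.55. Only 3 of 9 listed fibroblast markers (COL1A2, DCN and LUM) and 1 of 4 endothelial markers (KDR) were measured. They lay below it, between 5.90 and 6.22. Of the 4 immune markers measured, of 6 listed, LYZ and CD68 lay above that median and CD14 and CD79A below. LYZ averaged 13.70, above all the epithelial markers. On 1 array, siLRH-1 #2 replicate 2, 50 probes stood at least 0.5 above all other arrays, against at most 1 probe on any other array. Results without it are given for the bright DKK1 probe, for MSN and for some of the counts of calls.

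The stem cell and Wnt target genes differed among themselves in how they changed. ASCL2 was higher with both siRNAs, LGR5, EPHB3 and 1 of the 2 DKK1 probes were higher with siLRH-1 #1, and AXIN2 and the other DKK1 probe were lower with siLRH-1 #2, while CD44, LEF1 and BMP4 passed the test in no comparison. With siLRH-1 #1, 4 of the 11 probes were higher than with siLUC at an adjusted p under 0.05 in limma and 0 were lower, against 3.22% higher and 3.78% lower of all probes. With siLRH-1 #2, 1 probe was higher and 2 were lower than with siLUC, against 3.25% and 3.74% of all probes. Between the siRNAs, siLRH-1 #1 was above siLRH-1 #2 at 4 probes and below it at 0, against 4.82% and 5.13% of all probes. With 11 probes from 8 genes, 1 probe more or less moves these counts, and the comparisons with siLUC share the same 4 siLUC arrays. The members were chosen with earlier results of these data known, so the counts beside these shares are a description and not a test of the set. The changes were between 1.17-fold and 1.42-fold against siLUC among the probes called. In RNA from whole cultures, fewer cells expressing a gene and less RNA per cell cannot be told apart.

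**Figure D1:**
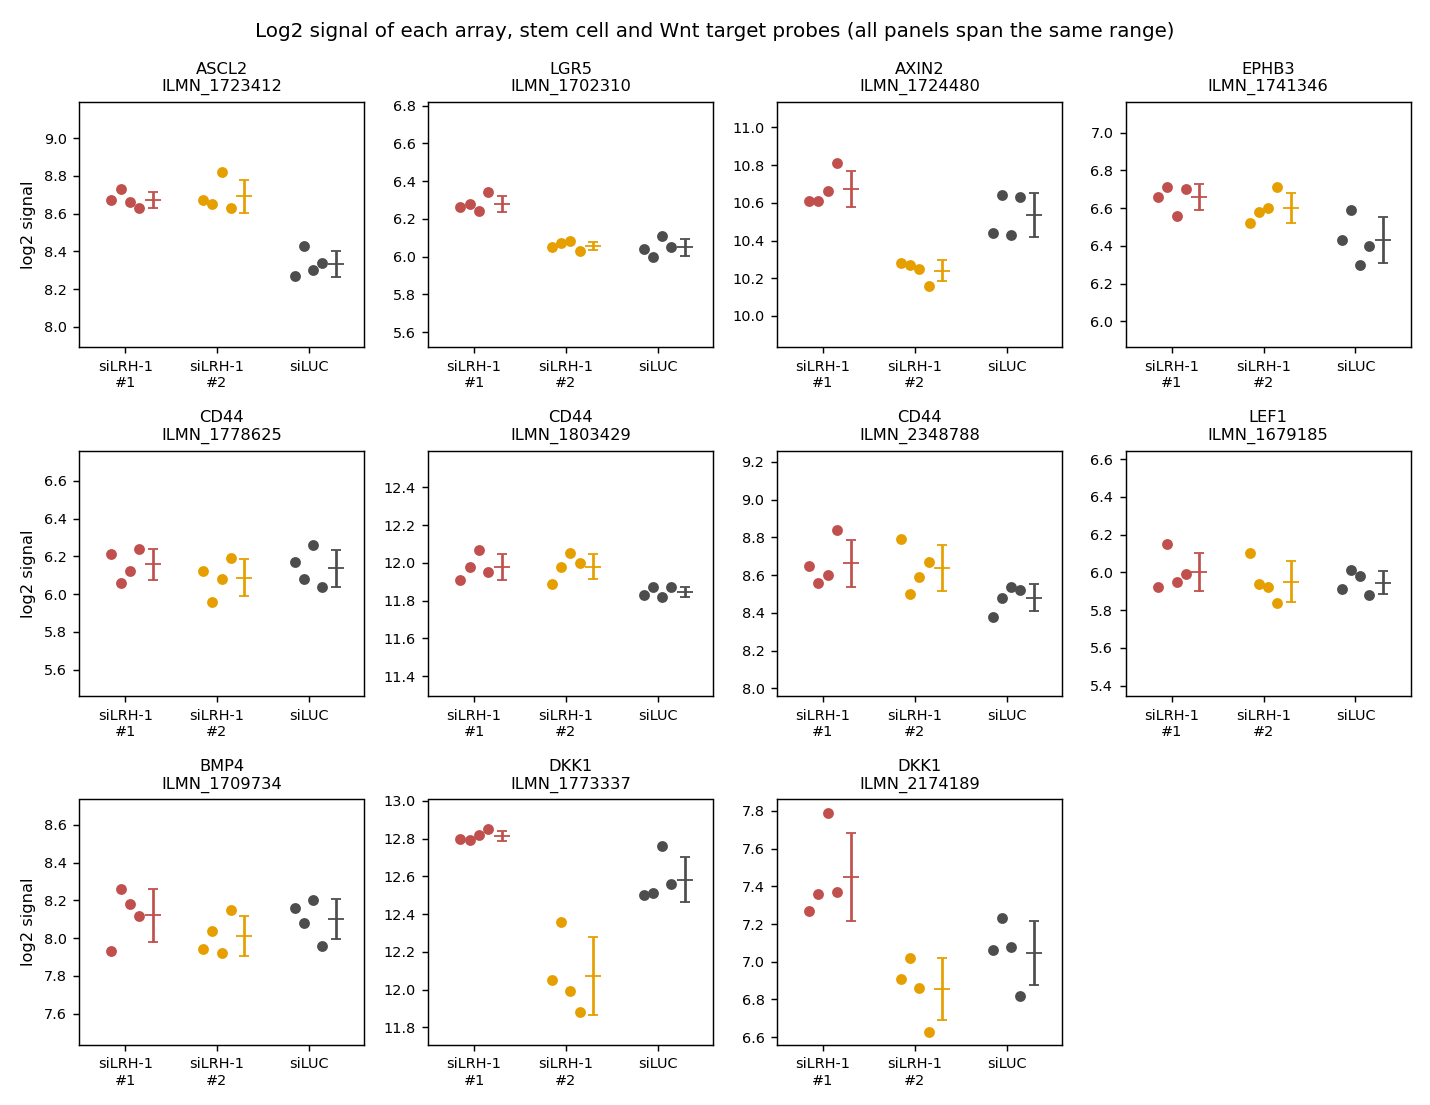
Log2 signal (y axis) of each of the 11 probes on each array, with siLRH-1 #1 in red, siLRH-1 #2 in orange and siLUC in grey. Points are arrays in order of replicate number, the bar beside them is the mean ± SD (n = 4), and all panels span the same range. ASCL2 lay at 8.63 or above with both LRH-1 siRNAs and at 8.43 or below with siLUC. Separation from siLUC in either direction was seen for 13.2% of all probes with siLRH-1 #1 and 12.8% with siLRH-1 #2.

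Among the feedback inhibitors, DKK1 changed most. DKK1 encodes a secreted protein that binds the LRP co-receptors and blocks Wnt signalling, and it was measured by a bright probe (ILMN_1773337) and a dimmer one (ILMN_2174189). On the bright probe, log2 signals were 12.80, 12.79, 12.82 and 12.85 with siLRH-1 #1, 12.05, 12.36, 11.99 and 11.88 with siLRH-1 #2, and 12.50, 12.51, 12.76 and 12.56 with siLUC. The 3 groups did not overlap: all siLRH-1 #1 arrays lay above all siLUC arrays, and all siLRH-1 #2 arrays lay below them. Over all probes, 13.2% with siLRH-1 #1 and 12.8% with siLRH-1 #2 were apart from siLUC in one direction or the other. With siLRH-1 #2 the bright probe fell by 0.51 on the log2 scale relative to siLUC (SE 0.08, limma adjusted p = 0.00031, 1.42-fold lower). The highest of the siLRH-1 #2 values came from replicate 2, and without that array the change was -0.61.

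With siLRH-1 #1 the bright DKK1 probe was 0.24 above siLUC (SE 0.08), and this did not pass the test (limma adjusted p = 0.097). The result sat near the threshold, since the adjusted p was 0.026 without siLRH-1 #2 replicate 2, 0.04 without siLUC replicate 3, and 0.031 when only these groups were fitted. Set directly against each other, siLRH-1 #1 was 0.75 above siLRH-1 #2 (95% interval 0.57 to 0.92, limma adjusted p = 1.6e-06, 1.68-fold).

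The dimmer DKK1 probe gave 7.27, 7.36, 7.79 and 7.37 with siLRH-1 #1, 6.91, 7.02, 6.86 and 6.63 with siLRH-1 #2, and 7.06, 7.23, 7.08 and 6.82 with siLUC. All siLRH-1 #1 arrays again lay above the siLUC arrays, a comparison in which 13.2% of all probes were apart in one direction or the other. The siLRH-1 #2 and siLUC arrays overlapped. The probes therefore split the calls between them. The dimmer probe was 0.40 higher with siLRH-1 #1 than with siLUC (SE 0.10, limma adjusted p = 0.018, 1.32-fold), and siLRH-1 #2 was not called, at -0.19 (SE 0.10, limma adjusted p = 0.31). Its call with siLRH-1 #1 was lost without siLRH-1 #1 replicate 3, its highest array (limma adjusted p = 0.076), and without siLUC replicate 4, its lowest control (limma adjusted p = 0.086). The direct difference between the siRNAs passed on this probe as well, at 0.59 (95% interval 0.38 to 0.80, limma adjusted p = 0.00036, 1.51-fold).

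The DNA before the DKK1 start site is shown because DKK1 had the largest change of the measured members and was the only one of them with a TCF/LEF word in the windows searched. Of the 8 measured genes, EPHB3, CD44, LEF1, BMP4 and DKK1 matched the RefSeq promoter table (build GRCh38.p14), with 7 windows in all because BMP4 has 3, and ASCL2, LGR5 and AXIN2 did not. The 250 bases before each start were searched on both strands for CTTTGAT or CTTTGTT or CTTTGAA or CTTTGTA, words that TCF/LEF factors bind, and for CAAGGCC or CAAGGTC, the core of the LRH-1 response element. A TCF/LEF word occurred in 11.96% of all 35116 windows of this length and an LRH-1 word in 7.60%. The DKK1 window, chr10:52314031-52314280 on the plus strand, held 2 TCF/LEF words, CTTTGAA plus CTTTGTT, whose first bases lie 95 and 76 bases before the start and which are in capitals, and no LRH-1 word. The EPHB3 window, chr3:184561535-184561784 on the plus strand, is printed below it as the other window of a member called in any comparison. It held neither word, and neither did those of CD44, LEF1 and BMP4.
DKK1: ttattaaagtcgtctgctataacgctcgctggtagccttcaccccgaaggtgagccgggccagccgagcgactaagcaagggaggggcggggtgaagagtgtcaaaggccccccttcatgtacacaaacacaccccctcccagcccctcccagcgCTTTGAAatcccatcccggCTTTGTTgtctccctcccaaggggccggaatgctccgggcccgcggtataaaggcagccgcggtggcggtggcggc
EPHB3: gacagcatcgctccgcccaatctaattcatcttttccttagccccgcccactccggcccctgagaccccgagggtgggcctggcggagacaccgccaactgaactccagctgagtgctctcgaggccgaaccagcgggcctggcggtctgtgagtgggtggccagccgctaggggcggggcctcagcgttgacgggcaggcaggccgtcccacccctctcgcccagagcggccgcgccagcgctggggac
A match of these letters is a description of the window and does not show that a factor binds there.

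AXIN2, a scaffold of the destruction complex and a widely used readout of beta-catenin activity, gave 10.61, 10.61, 10.66 and 10.81 with siLRH-1 #1, 10.28, 10.27, 10.25 and 10.16 with siLRH-1 #2, and 10.44, 10.64, 10.43 and 10.63 with siLUC. All siLRH-1 #2 arrays lay below all others, while siLRH-1 #1 overlapped siLUC. Of all probes, 12.8% were apart between siLRH-1 #2 and siLUC and 14.9% between the siRNAs, in one direction or the other. AXIN2 fell by 0.30 on the log2 scale with siLRH-1 #2 relative to siLUC (SE 0.07, limma adjusted p = 0.0072, 1.23-fold lower). With siLRH-1 #1 it was 0.14 above siLUC and was not called (SE 0.07, limma adjusted p = 0.28). The direct difference between siLRH-1 #1 and siLRH-1 #2 was 0.43 (95% interval 0.29 to 0.57, limma adjusted p = 9.9e-05, 1.35-fold). The AXIN2 calls held under all 20 alternative settings run, leaving out each array among them.

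**Figure D2:**
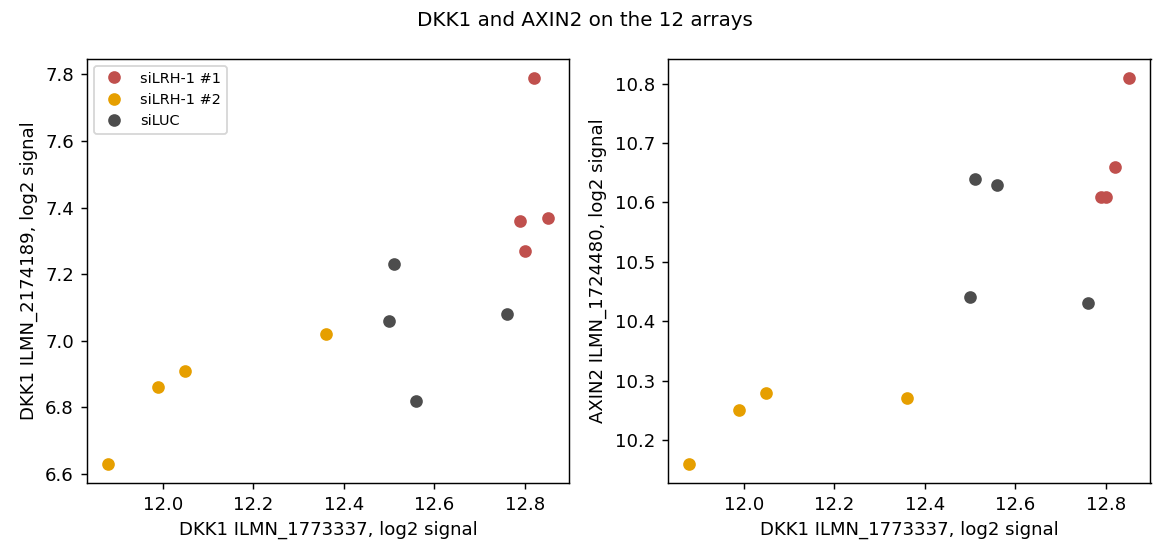
Log2 signal of the dimmer DKK1 probe (left, y axis) and of AXIN2 (right, y axis) against the bright DKK1 probe (x axis), 1 point for each of the 12 arrays, with siLRH-1 #1 in red, siLRH-1 #2 in orange and siLUC in grey. The siLRH-1 #1 arrays sit at 12.79 or above on the bright DKK1 probe, and the siLRH-1 #2 arrays sit at 12.36 or below on it and at 10.28 or below on AXIN2.

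ASCL2, a transcription factor that controls the identity of intestinal stem cells, was the only measured member called in the same direction with both siRNAs. Its signals were 8.67, 8.73, 8.66 and 8.63 with siLRH-1 #1, 8.67, 8.65, 8.82 and 8.63 with siLRH-1 #2, and 8.27, 8.43, 8.30 and 8.34 with siLUC. All 8 arrays of the LRH-1 siRNAs lay above all 4 siLUC arrays. ASCL2 rose by 0.34 with siLRH-1 #1 (SE 0.06, limma adjusted p = 0.00076, 1.27-fold). It rose by 0.36 with siLRH-1 #2 (SE 0.06, limma adjusted p = 0.00049, 1.28-fold). Between siLRH-1 #1 and siLRH-1 #2 the difference was -0.02, with a 95% interval of -0.14 to 0.11 (limma adjusted p = 0.91). Both calls against siLUC held under all 20 alternatives, with adjusted p between 0.00015 and 0.0054 for siLRH-1 #1 and between 8e-05 and 0.0035 for siLRH-1 #2.

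LGR5, the R-spondin receptor that marks cycling crypt base stem cells, was measured by a dim probe, on average 0.42 below the median of all probes. It gave 6.26, 6.28, 6.24 and 6.34 with siLRH-1 #1, 6.05, 6.07, 6.08 and 6.03 with siLRH-1 #2, and 6.04, 6.00, 6.11 and 6.05 with siLUC. The siLRH-1 #1 arrays lay above all others, and siLRH-1 #2 and siLUC overlapped. Of all probes, 13.2% were apart between siLRH-1 #1 and siLUC and 14.9% between the siRNAs, in one direction or the other. LGR5 rose by 0.23 with siLRH-1 #1 (SE 0.05, limma adjusted p = 0.0098, 1.17-fold). With siLRH-1 #2 the difference from siLUC was 0.01 (95% interval -0.10 to 0.12, limma adjusted p = 0.95). Between the siRNAs LGR5 differed by 0.22 (95% interval 0.11 to 0.33, limma adjusted p = 0.0093). Detection p-values of single probes were not used here, so how much of so dim a signal is background was not tested.

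EPHB3, an ephrin receptor that helps to position cells along the crypt, gave 6.66, 6.71, 6.56 and 6.70 with siLRH-1 #1, 6.52, 6.58, 6.60 and 6.71 with siLRH-1 #2, and 6.43, 6.59, 6.30 and 6.40 with siLUC. Against siLUC the groups overlapped, since 1 siLRH-1 #1 array and 2 siLRH-1 #2 arrays lay below the highest siLUC array. It rose by 0.23 with siLRH-1 #1 (SE 0.07, limma adjusted p = 0.041, 1.17-fold), and with siLRH-1 #2 it was 0.17 above siLUC and was not called (SE 0.07, limma adjusted p = 0.14). The siRNAs differed by 0.06 (95% interval -0.08 to 0.19, limma adjusted p = 0.70). The EPHB3 call was the weakest of the set: it was lost under 7 of 20 alternatives, without siLRH-1 #1 replicate 1, 2 or 4, without siLUC replicate 1, 3 or 4, and with the unmoderated variance, with adjusted p up to 0.14.

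CD44, the hyaluronan receptor used as a marker of colon cancer stem cells, had 3 probes, and none passed the test in any comparison. The brightest (ILMN_1803429) averaged 11.98 ± 0.07 with siLRH-1 #1 (11.91 to 12.07), 11.98 ± 0.07 with siLRH-1 #2 (11.89 to 12.05) and 11.85 ± 0.03 with siLUC (11.82 to 11.87; SD, n = 4 each). Both siRNAs were thus 0.13 above siLUC with no overlap of arrays, yet the adjusted p was 0.22 with siLRH-1 #1 and 0.20 with siLRH-1 #2 in limma. Groups this far apart on all their arrays were common in the data: 13.2% of all probes with siLRH-1 #1 and 12.8% with siLRH-1 #2 did not overlap siLUC in one direction or the other. ILMN_2348788 averaged 8.66 ± 0.12 with siLRH-1 #1, 8.64 ± 0.13 with siLRH-1 #2 and 8.48 ± 0.07 with siLUC. Its siLRH-1 #1 arrays also lay above its siLUC arrays, at 8.56 or above against 8.54 or below, whereas siLRH-1 #2 overlapped siLUC. Its differences from siLUC were 0.18 with siLRH-1 #1 (limma adjusted p = 0.15) and 0.16 with siLRH-1 #2 (limma adjusted p = 0.22). The third probe, ILMN_1778625, was dim, at 6.16 ± 0.08 with siLRH-1 #1, 6.09 ± 0.10 with siLRH-1 #2 and 6.13 ± 0.10 with siLUC, and its differences of 0.02 and -0.05 from siLUC were within the spread of the arrays. Which CD44 isoforms each probe reads was not tested.

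LEF1, the TCF/LEF family member that is itself a Wnt target, was at the floor of the array: 4.9% of all probes were dimmer. It averaged 6.00 ± 0.10 with siLRH-1 #1 (5.92 to 6.15), 5.95 ± 0.11 with siLRH-1 #2 (5.84 to 6.10) and 5.94 ± 0.06 with siLUC (5.88 to 6.01). The differences from siLUC were 0.06 with siLRH-1 #1 (95% interval -0.08 to 0.20) and 0.01 with siLRH-1 #2 (95% interval -0.13 to 0.14). BMP4, a secreted differentiation signal of the BMP pathway and a Wnt target in colon cancer cells, was well above that level. It averaged 8.12 ± 0.14 with siLRH-1 #1 (7.93 to 8.26), 8.01 ± 0.11 with siLRH-1 #2 (7.92 to 8.15) and 8.10 ± 0.11 with siLUC (7.96 to 8.20). Its differences from siLUC were 0.02 with siLRH-1 #1 (95% interval -0.13 to 0.18, limma adjusted p = 0.92) and -0.09 with siLRH-1 #2 (95% interval -0.24 to 0.07, limma adjusted p = 0.59).

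**Figure D3:**
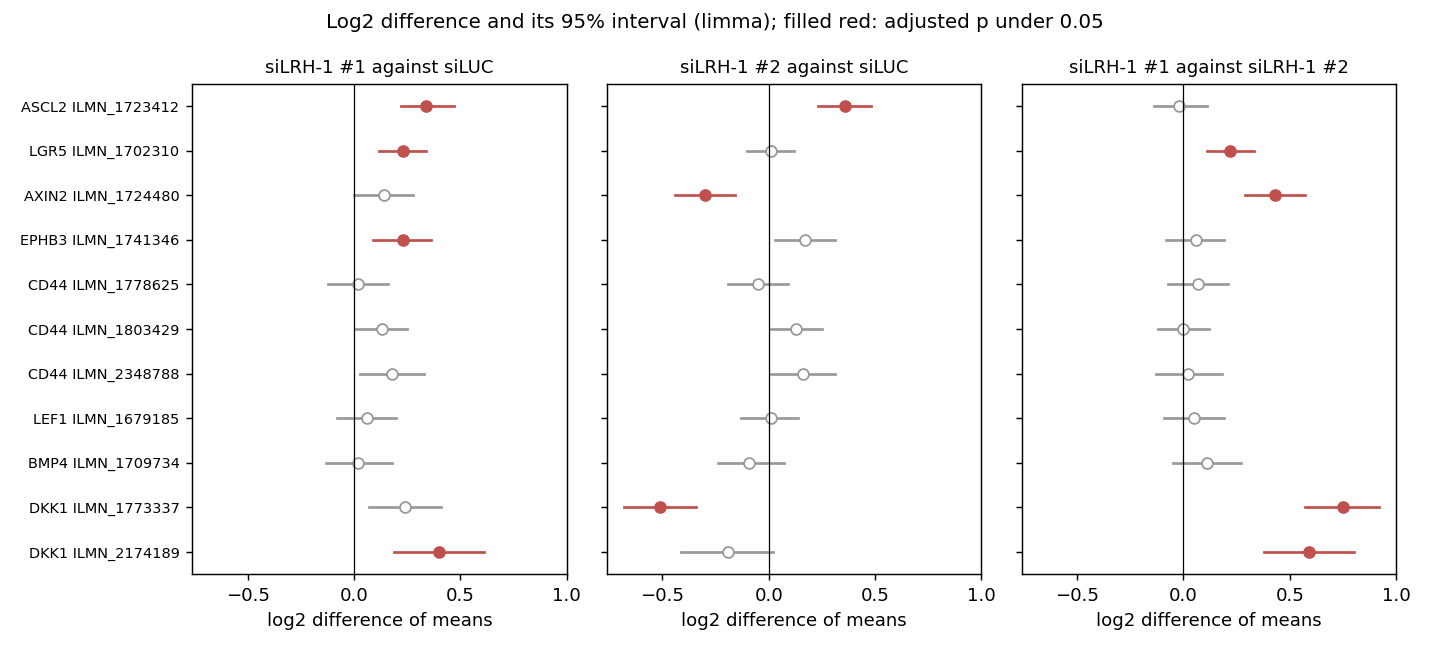
Log2 difference of group means (x axis) with its 95% interval from limma for each probe (rows), in the comparisons siLRH-1 #1 against siLUC, siLRH-1 #2 against siLUC and siLRH-1 #1 against siLRH-1 #2. Filled red points passed an adjusted p of 0.05; ASCL2 lies at 0.34 and 0.36 against siLUC, and the bright DKK1 probe lies at 0.24 with siLRH-1 #1 and at -0.51 with siLRH-1 #2.

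Genes that act around these targets were described from lists of the pathway, with the brightest probe standing for each gene. Over all 7331 named genes, 5.05% were called higher and 5.17% lower with siLRH-1 #1, and 5.14% were called higher and 4.88% lower with siLRH-1 #2. The median change over all genes was 0.01 with each siRNA. Of the ligand list only WLS, which carries Wnt proteins to the cell surface, had a probe, at 0.13 with siLRH-1 #1 and 0.06 with siLRH-1 #2, and it was not called with either.

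Of 15 receptors and co-receptors, 3 were called higher and 1 lower with siLRH-1 #1 (median 0.11), and 0 were called higher and 0 lower with siLRH-1 #2 (median 0.02, with 6 at an unadjusted p under 0.05 in limma). The Frizzled receptor FZD5 rose by 0.29 with siLRH-1 #1 (limma adjusted p = 0.012), and so did ROR1, a co-receptor of non-canonical Wnt signals, by 0.24 (limma adjusted p = 0.022), while FZD4 fell by 0.23 (limma adjusted p = 0.028). The third gene that rose was LGR5 itself. FZD4 is a dim probe, at 5.98 ± 0.07 with siLRH-1 #1, 6.41 ± 0.05 with siLRH-1 #2 and 6.21 ± 0.11 with siLUC. Between the siRNAs FZD4 was lower with siLRH-1 #1 by 0.43 on the log2 scale (-0.43, limma adjusted p = 5.1e-05), and FZD5 was higher with it by 0.35 (limma adjusted p = 0.0014). Leaving out 1 array ended the siLUC call of FZD4 for 5 arrays, with adjusted p up to 0.10, of ROR1 for 4, up to 0.082, and of FZD5 for siLRH-1 #1 replicate 4, at 0.065. The FZD5 call was also lost in the limma fit with the unmoderated variance (adjusted p = 0.054).

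Of 12 genes of the destruction complex and its scaffold, 0 were called higher and 1 lower with siLRH-1 #1, and 1 were called higher and 2 lower with siLRH-1 #2, with medians of 0.02 and 0.02. FBXW11, a ubiquitin ligase subunit that recognises phosphorylated beta-catenin, fell by 0.98 with siLRH-1 #1 (SE 0.09, limma adjusted p = 1.5e-07). It averaged 8.96 ± 0.08 with siLRH-1 #1, 10.09 ± 0.17 with siLRH-1 #2 and 9.94 ± 0.18 with siLUC, and its other probe fell by 0.67 with siLRH-1 #1 (limma adjusted p = 3.9e-06). With siLRH-1 #2 FBXW11 was 0.14 above siLUC and was not called (limma adjusted p = 0.38), and the siRNAs differed by -1.12 (limma adjusted p = 1.4e-08). AMER1, a membrane scaffold that binds APC, rose by 0.46 with siLRH-1 #2 (limma adjusted p = 2.6e-05), and its dim second probe rose by 0.32 (limma adjusted p = 0.025). The kinases GSK3B, which phosphorylates beta-catenin for destruction, and CSNK1E fell by 0.32 (limma adjusted p = 0.0020) and by 0.24 (limma adjusted p = 0.018) with siLRH-1 #2. The CSNK1E call was lost without siLRH-1 #2 replicate 1, siLUC replicate 2 or siLUC replicate 3, with adjusted p up to 0.07. CTNNB1, which encodes beta-catenin, was at -0.03 with siLRH-1 #1 and 0.03 with siLRH-1 #2, neither called.

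Of 8 TCF/LEF factors and nuclear partners of beta-catenin, 1 were called higher and 1 lower with siLRH-1 #1 and 0 were called higher and 1 lower with siLRH-1 #2, with medians of 0.06 and -0.03. The co-activator EP300 rose by 0.23 with siLRH-1 #1 (limma adjusted p = 0.022), a call lost without any 1 of 4 arrays with adjusted p up to 0.11, and CHD8, a chromatin remodeller that restrains beta-catenin targets, fell by 0.27 (limma adjusted p = 0.0053). BCL9, which bridges beta-catenin to its co-activators, fell by 0.45 with siLRH-1 #2 (limma adjusted p = 0.00033), to 7.32 ± 0.10, against 7.77 ± 0.06 with siLUC. For BCL9 the siRNAs differed by 0.57, siLRH-1 #1 above siLRH-1 #2 (limma adjusted p = 1e-05). Of 4 inhibitors measured, DKK1 was the only one called against siLUC. DKK2 and the DKK receptors KREMEN1 and KREMEN2 lay between -0.05 and 0.17 with siLRH-1 #1 and between 0.00 and 0.14 with siLRH-1 #2.

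Of 13 other Wnt targets of colon cancer, 3 were called higher and 2 lower with siLRH-1 #1 (median -0.02), and 0 were called higher and 4 lower with siLRH-1 #2 (median -0.05). With siLRH-1 #1 the tight junction gene CLDN1 rose by 0.33 (limma adjusted p = 0.0038), whereas BIRC5, which encodes survivin, fell by 0.44 (limma adjusted p = 0.00011) and the transcription factor ETS2 fell by 0.30 (limma adjusted p = 0.0030). CCND1 (cyclin D1) and MMP7 made up the rest that rose. With siLRH-1 #2, MYB, a transcription factor of crypt progenitors, fell by 1.02 on the log2 scale (SE 0.07, limma adjusted p = 3.5e-09). It averaged 8.02 ± 0.04 with siLRH-1 #1, 7.21 ± 0.07 with siLRH-1 #2 and 8.23 ± 0.16 with siLUC. The AP-1 subunits FOSL1 and JUN also fell with siLRH-1 #2, by 0.34 (limma adjusted p = 0.0011) and by 0.30 (limma adjusted p = 0.0014). The fourth was MYC, and its second probe was not called (-0.23, limma adjusted p = 0.084).

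Of 18 other stem and progenitor genes, 2 were called higher and 1 lower with siLRH-1 #1 (median 0.12), and 1 were called higher and 2 lower with siLRH-1 #2 (median 0.03). BMI1, a Polycomb repressor and stem cell gene, rose with both siRNAs, as ASCL2 did: it averaged 11.07 ± 0.10 with siLRH-1 #1 and 11.12 ± 0.05 with siLRH-1 #2, against 10.77 ± 0.02 with siLUC (limma adjusted p = 0.0017 and 0.00042). ITGB1, the integrin beta-1 subunit, rose by 0.30 with siLRH-1 #1 (limma adjusted p = 0.0026), and ETS2 was the gene that fell. MYB and CDK6 fell with siLRH-1 #2, CDK6 by 0.27 (limma adjusted p = 0.019), a call lost under 6 of 20 alternatives with adjusted p up to 0.075. Of 14 genes of differentiated colon epithelium, 0 were called higher and 0 lower with siLRH-1 #1 (0 at an unadjusted p under 0.05 in limma), and with siLRH-1 #2 1 fell, the adhesion molecule CEACAM1, by 0.36 (limma adjusted p = 0.00090), on its brightest probe but not on its other 2. Their medians were -0.06 and -0.01.

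Of 7 ephrins and other EPH receptors of both classes, 2 were called higher and 1 lower with siLRH-1 #1, and 0 were called higher and 1 lower with siLRH-1 #2, with medians of -0.01 and -0.01. EFNB2, a B-class ephrin ligand, fell with both siRNAs: it averaged 10.42 ± 0.07 with siLRH-1 #1 and 10.24 ± 0.10 with siLRH-1 #2, against 10.75 ± 0.09 with siLUC (limma adjusted p = 0.0024 and 2.2e-05). EPHA1 and EPHA2 rose by 0.37 (limma adjusted p = 0.00082) and by 0.27 (limma adjusted p = 0.029) with siLRH-1 #1, and the EPHA2 call was lost under 5 of 20 alternatives with adjusted p up to 0.14. Around BMP4, 2 of 10 genes of the BMP pathway were called higher and 0 lower with siLRH-1 #1 (median 0.02), and 0 were called higher and 1 lower with siLRH-1 #2 (median -0.02). ACVR1, a type I BMP receptor, rose by 0.36 (limma adjusted p = 0.00091) and BAMBI, a decoy receptor and Wnt target, rose by 0.36 (limma adjusted p = 0.0034) with siLRH-1 #1, and ID1, a target of BMP signalling, fell by 0.34 with siLRH-1 #2 (limma adjusted p = 0.0013).

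Among 9 partners of CD44 at the membrane, 2 were called higher and 1 lower with siLRH-1 #1 and 1 were called higher and 3 lower with siLRH-1 #2, with medians of 0.02 and 0.03. MET, the HGF receptor for which CD44 variants act as a co-receptor, rose with both: it averaged 10.46 ± 0.07 with siLRH-1 #1 and 10.33 ± 0.21 with siLRH-1 #2, against 9.98 ± 0.08 with siLUC (limma adjusted p = 0.00040 and 0.0074). CD24, a surface glycoprotein used beside CD44 to sort tumour cells, fell by 0.22 with siLRH-1 #1 (limma adjusted p = 0.028) and by 0.39 with siLRH-1 #2 (limma adjusted p = 0.00020). Moesin, encoded by MSN, links CD44 to actin; it rose by 0.26 with siLRH-1 #1 (limma adjusted p = 0.013) and fell by 0.22 with siLRH-1 #2 (limma adjusted p = 0.035), and the siRNAs differed by 0.47 (limma adjusted p = 1.4e-05). The hyaluronan synthase HAS3 fell by 0.35 with siLRH-1 #2 (limma adjusted p = 0.0020). The calls lost under an alternative were those of CD24 with siLRH-1 #1 (5 of 20 alternatives, adjusted p up to 0.10), MSN with siLRH-1 #1 (without siLUC replicate 1, 0.063), MSN with siLRH-1 #2 (8 of 20, up to 0.11) and MET with siLRH-1 #2 (unmoderated variance, 0.065). Without siLRH-1 #2 replicate 2, MSN was not called with siLRH-1 #2 (limma adjusted p = 0.053).

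**Figure D4:**
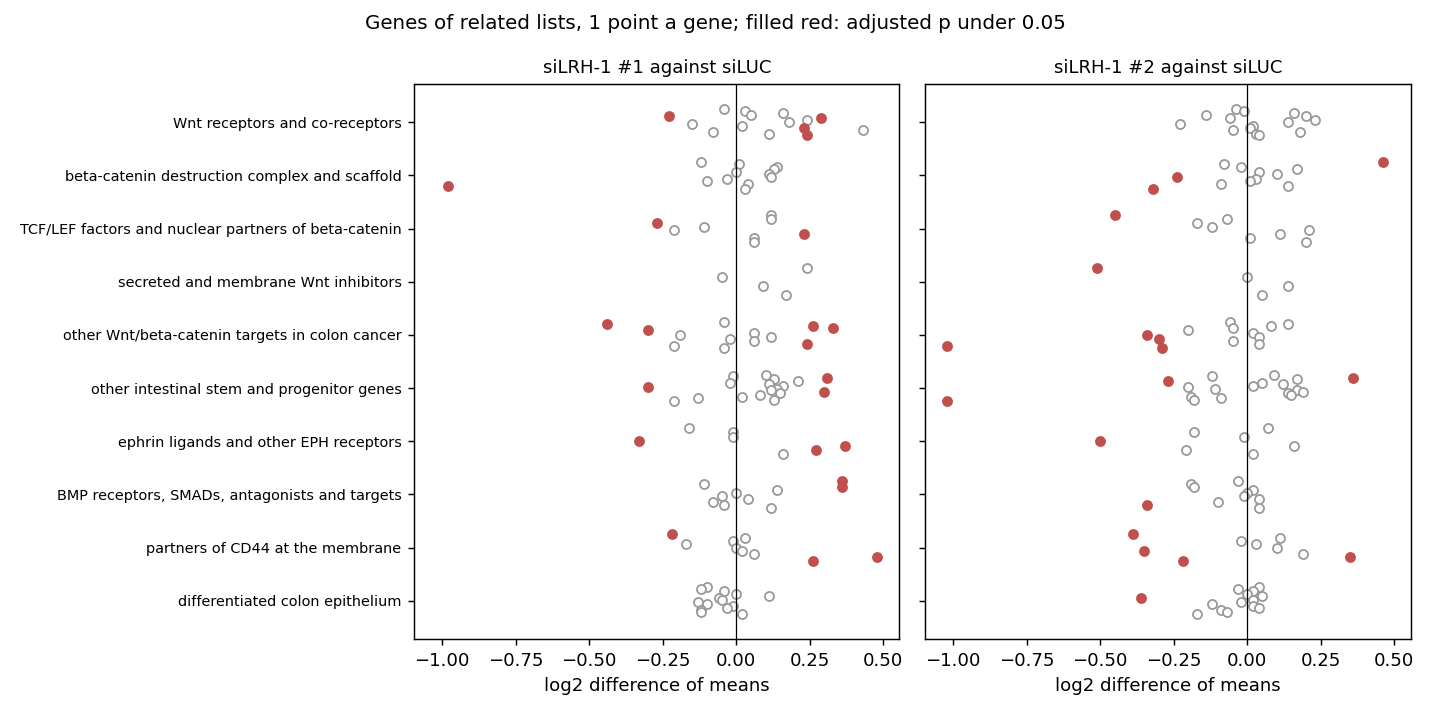
Log2 difference of group means (x axis) of each gene of 10 related lists (rows, 1 point a gene) with siLRH-1 #1 (left) and siLRH-1 #2 (right) against siLUC. Filled red points passed an adjusted p of 0.05; the lowest are FBXW11 at -0.98 with siLRH-1 #1 and MYB at -1.02 with siLRH-1 #2, and MYB, ETS2, EPHB4 and ID2 appear in more than 1 list.

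The genes whose signals followed each called member most closely over the 12 arrays were sought among 7323 other named genes, as a description with no test, since the arrays form 3 groups and any gene with the same group pattern ranks high. ASCL2 was most like ADM (r = 0.97), CERS6 (r = 0.95) and HARS1 (r = 0.95). LGR5 was most like the BMP receptor gene ACVR1 (r = 0.97), SMIM13 (r = 0.95) and EDEM1 (r = 0.94). EPHB3 was most like HGD (r = 0.94), RPRD2 (r = 0.90) and MLF2 (r = 0.89). AXIN2 and the bright DKK1 probe both had LITAF among their closest genes, at r = 0.95 for AXIN2 and r = 0.97 for DKK1. AXIN2 was otherwise most like ITPRIPL2 (r = 0.96) and FUBP1 (r = 0.96), and the bright DKK1 probe most like HCCS (r = 0.96) and COPS7A (r = 0.96). The dimmer DKK1 probe was most like KCNG4 (r = 0.94), FBXL18 (r = 0.90) and DNAJB9 (r = 0.90).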

How the data were processed

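RNA from 12 HT29 cultures was measured, and groups and replicate numbers came from the sample labels. Per the study's methods and processing notes, the authors read the bead images in GenomeStudio, dropped probes that no sample detected (detection p above 0.05), and in Partek took log2 and quantile-normalised the signal. The sources used here give neither the versions nor whether a second cell line was normalised together with these arrays. The deposited values used were these log2 signals (16381 probes, 0 missing). Another table had 24 columns that matched no sample label and were not used. No pair of arrays was identical. The number of arrays limits the precision.

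All 3 groups were fitted together with limma 3.58.1 in R 4.3.3 (group means, eBayes, two-sided, Benjamini-Hochberg over all probes, threshold 0.05). The procedure was tested on simulated data. Of the probes, 9756 had 1 gene symbol, 4 several and 6621 none. Member probes were reported singly and, where called, on every array. In the lists, the brightest probe stood for a gene, and up to 3 called genes with the largest change per list and comparison with siLUC were given values, with other genes named after their values were seen. Members and lists were chosen with earlier results of these data known. Alternatives were 2 scalings, the brighter probes only, 2 other treatments of the spread, 2 groups only, a replicate block, array weights, averaged probes, and leaving out each array.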

Additional observations from a re-analysis of the deposited data

Results flagged for a closer look

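The siRNAs against LRH-1 differed from each other, by a direct test, at 4 probes of 3 genes. The log2 difference, siLRH-1 #1 minus siLRH-1 #2, was 0.22 for LGR5 (limma adjusted p = 0.0093), 0.43 for AXIN2 (9.9e-05), and 0.75 (1.6e-06) and 0.59 (0.00036) for the bright and the dimmer DKK1 probe. In all 4 cases every siLRH-1 #1 array lay above every siLRH-1 #2 array; over all probes, 14.9% did not overlap between these siRNAs in one direction or the other. The 4 calls held under every alternative that kept the probe. Both siRNAs are directed against the same gene, and what separates them was not tested. No array stood apart from the other 3 of its group by Dixon's criterion in any of the 33 sets of 4 values.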

How the results depend on the processing

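With siLRH-1 #1 against siLUC, 4 member probes were called higher, and 2 without moderation of the spread (LGR5 and ASCL2), where EPHB3 and the dimmer DKK1 probe lost their calls. Fitting 2 groups only gave 5, with the bright DKK1 probe added. Among the brighter probes only, 4 of 8 were called: LGR5 was not kept, and the bright DKK1 probe was called (limma adjusted p = 0.044). Leaving out 1 array gave between 2 (without siLUC replicate 4) and 5 probes (without siLRH-1 #2 replicate 2). The other counts of member probes called did not change under any alternative that kept the probes. No called member changed direction.

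The arrays showed no consistent pairing by replicate number, and whether same-numbered arrays shared a culture or batch was not tested. Deviations of same-numbered arrays from their group means correlated between -0.05 and 0.18 for siLRH-1 #1 and siLUC, between -0.15 and -0.10 for siLRH-1 #2 and siLUC, and between -0.06 and 0.20 for siLRH-1 #1 and siLRH-1 #2, and not every array correlated best with its own number. With the replicate block the counts of member probes were as without it (4 higher with siLRH-1 #1, 1 higher and 2 lower with siLRH-1 #2), and over all probes 1058, 1043 and 1538 were called in the 3 comparisons, against 1146, 1146 and 1629 without it.

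Without siLRH-1 #2 replicate 2, an alternative chosen after seeing the data for the lists, 1 nuclear partner of beta-catenin was called higher with siLRH-1 #2 (0 with it) and 1 Wnt inhibitor higher with siLRH-1 #1 (0 with it). Averaging the probes of a gene gave 2 receptors called higher with siLRH-1 #2 (0 with the brightest probe).

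Dim probes limit the comparison for LGR5, LEF1 and 1 CD44 probe. The EPHB3 probe averaged 6.56, only 0.01 above the median of all probes, and how much of it is background was not tested.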
